A study of Danio rerio with 13 samples.

Results

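The 64-cell (64C) embryo of zebrafish is the only stage of this 6mA-IP-seq study at which genomic DNA (gDNA) was immunoprecipitated with 2 antibodies, one from SYSY and one from Abcam. The summit lists of these 2 libraries are compared here by chromosome, by distance from the chromosome end, by the number of summits in a peak, by the spacing of summits and by the offset between matched summits. The 2 lists hold 132802 summits, of the 159142 in the 8 immunoprecipitated (IP) libraries of the study. The SYSY list holds no summit on unplaced scaffolds and stops short of the chromosome end on a few chromosomes, so that the comparison was limited to the 25 numbered chromosomes, each as far as its last SYSY summit. This common range keeps 79290 SYSY and 49053 Abcam summits, or 128343 together. All embryos were of the Tubingen strain. The SYSY IP used the polyclonal antibody 202003 (lot 202003/28) and the Abcam IP the antibody ab151230 (lot 4c), and each had its own input of gDNA that was not immunoprecipitated. The 6 other IP libraries, 2 biological replicates each at 11, 12 and 13 hours post fertilization (hpf), were all made with the SYSY antibody, with 1 input per stage. By the labels no strain, allele or treatment differs between the groups, only stage and antibody.

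6mA is adenine that carries a methyl group on the nitrogen at its sixth position, a base well known from bacterial DNA and also described in animals. An antibody raised against the methylated base enriches DNA fragments that hold it, and it also binds other DNA to some degree, which is why a second, independently raised antibody serves as a control for binding that belongs to the reagent. At the 64C stage the zebrafish embryo is still cleaving and its own genome is almost silent. The long arm of zebrafish chromosome 4 is known as a large heterochromatic, late-replicating and repeat-rich region, and the ends of chromosomes in many species are rich in tandem repeats. A peak is a stretch in which the IP holds more reads than the input, and a summit is the position of highest enrichment. Several summits can belong to a single peak and then carry the same peak number. The score of a summit is the −log10 of its q-value, and scores were compared only within a list or as medians.

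There was 1 library and 1 input per antibody at 64C, so that antibody, library and input cannot be told apart. No test across replicates was possible. The 3 replicate pairs of 11, 12 and 13 hpf show how far 2 libraries of 1 antibody and stage differ. Their values stand beside those of the antibodies. By the labels each later stage had 1 input, whereas each 64C library had its own. Whether a common input brings replicates closer was not tested. The intervals in brackets are at 95% and cover counting error only, and since summits lie in clusters they are narrower than the real uncertainty. The depth of each library is unknown, since reads were not analysed here. The peak names of the 64C SYSY list carry a replicate mark that differs from the mark in the later lists, and those of the Abcam list carry none. What these marks mean is not stated in the labels. The later SYSY libraries had 277 to 727 summits on scaffolds, and on chromosome 4 they had 22 to 63 past the last summit of the 64C SYSY list, which has none in either place. Whether the 64C SYSY list was made on other reference sequences than the rest, or trimmed later, is not stated. Its effect on where reads of repeats were placed, on chromosome 4 and elsewhere, was not tested.

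With the SYSY antibody 1.62 times as many summits were found as with the Abcam antibody (1.60 to 1.63), and 1.68 times as many peaks (56987 against 33876). Replicate 1 over replicate 2 gave 1.67 at 11 hpf, 0.845 at 12 hpf and 1.45 at 13 hpf, so that a ratio of this size was also seen between the replicates of 11 hpf, and smaller ones at 12 and 13 hpf. The median score was 5.68 in the SYSY list and 5.69 in the Abcam list. The 2 lists thus had the same typical score, and the SYSY list reached further up.

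A summit was called shared where the other list had a summit within 250 bp. Of the SYSY summits 33.4% were shared (26445 of 79290), and of the Abcam summits 59.7% (29292 of 49053). Each share depends on the number of summits in the other list. Among the replicate pairs, the 11 hpf libraries shared 44.4% (replicate 1) and 67.2% (replicate 2) of their summits, the 12 hpf libraries 51.4% and 44.7%, and the 13 hpf libraries 39.1% and 56.3%. The Abcam share was thus within the range of the replicates of 1 antibody, and the SYSY share was below all 6 of them.

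A minor part of the unshared SYSY summits lay in few places. In 140 bins of 100 kb, each with at least 20 SYSY summits and at least 10 times the Abcam number plus 1, there were 14785 SYSY summits, 18.6% of the list, against 124 Abcam summits. All 25 chromosomes had such a SYSY-dense bin, and chromosome 4 had 15 of them. In these bins 0.758% of the SYSY summits were shared, which follows from how the bins were chosen. Of all 52845 unshared SYSY summits 38172 lay outside these bins. Outside them the shared part was 40.8% of the SYSY summits and 59.7% of the Abcam summits. Since the bins were chosen by the difference between the lists, leaving them out has to bring the lists closer, and no such bins were left out of the replicates. Values outside the bins are thus given to show how much of a difference lies in them, and not to be set against the replicates.

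SYSY summits were denser than Abcam summits on all 25 chromosomes. To compare the distribution apart from the length of the lists, the share of the SYSY list on a chromosome was divided by the share of the Abcam list. Chromosome 4 stood apart with a ratio of 1.80 (1.70 to 1.90). It carried 4751 SYSY summits (76.6 per Mb) against 1632 Abcam summits (26.3 per Mb), the highest density of all chromosomes in the SYSY list and the lowest in the Abcam list. Chromosomes 8 and 16 came next at 1.23 each (1.17 to 1.30 and 1.17 to 1.29). The lowest ratios were 0.757 on chromosome 9 (0.714 to 0.802), 0.779 on chromosome 19 (0.737 to 0.824) and 0.793 on chromosome 18 (0.747 to 0.841). The interval of the ratio lay above 1 on 11 chromosomes and below 1 on 11, and it held 1 on 3.

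**Figure D1:**
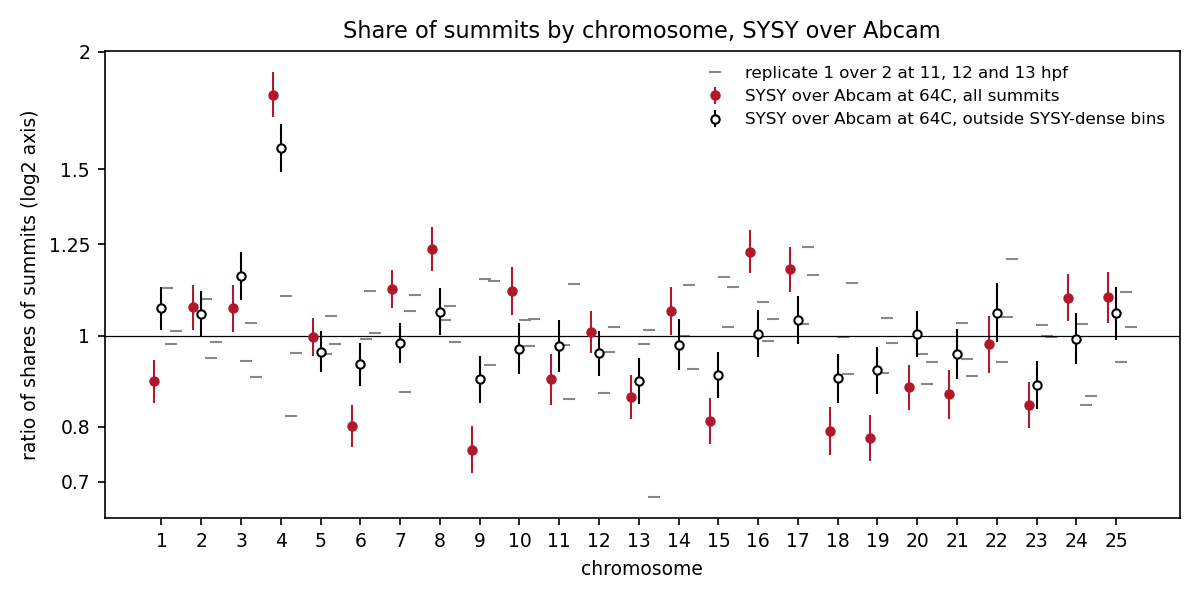
Ratio of the share of summits on each chromosome (log2 axis), SYSY over Abcam at 64C, for all summits (filled points) and outside SYSY-dense bins (open points) with 95% counting intervals; grey ticks give replicate 1 over replicate 2 at 11, 12 and 13 hpf. Chromosome 4 is highest both with (1.80) and without (1.58) the dense bins, while most other chromosomes move towards 1 without them.

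The spread of these ratios was larger than between replicates, and it rested in part on the dense bins. The SD of the log2 ratio over chromosomes was 0.28 between the antibodies, where counting error alone gives 0.042. Between replicates it was 0.11, 0.14 and 0.17 at 11, 12 and 13 hpf, which is no more than their counting error (0.15, 0.17 and 0.21), since these lists are short. Without chromosome 4 the SD was 0.22, and outside the dense bins 0.17. Outside the dense bins 5 chromosomes had a ratio below 1 in place of above 1, and 3 had one above 1 in place of below. The ratio of chromosome 4 remained the highest there, at 1.58 (1.49 to 1.67). Chromosomes 8 and 16 had ratios of 1.06 and 1.00 outside the dense bins, so that their excess lay almost entirely in such bins (1175 and 1343 SYSY summits). Since shares are relative, the bins of other chromosomes lower the ratio of a chromosome with few. Chromosomes 9, 19 and 18 had 0.899, 0.918 and 0.901 outside the bins, and the lowest ratio there was 0.885 on chromosome 23. Against the 6 later SYSY libraries, the SD was 0.28 to 0.38 for the 64C SYSY list (0.19 to 0.30 outside the dense bins) and 0.13 to 0.22 for the 64C Abcam list. By chromosome and over all summits, the Abcam list was thus the nearer of the 64C lists to the later libraries. Outside the dense bins the ranges of the SD overlapped. Chromosome 4 held 5.99% of the SYSY summits, 3.33% of the Abcam summits and 2.33% to 3.56% of the later ones. This SD was not taken without chromosome 4. By summit the order was the other way. Within 250 bp of the longer SYSY list lay 84.5% to 91.9% of the later summits, and of the Abcam list 74.2% to 79.9%.

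On chromosome 4 the difference changed along its length. In chr4:1-10000000 there were 833 SYSY and 624 Abcam summits, a ratio of shares of 0.826 (0.745 to 0.916), and in chr4:10000001-20000000 there were 233 and 193, a ratio of 0.747 (0.617 to 0.904). Neither stretch had a SYSY summit in a dense bin. With the bins left out of the list totals, the ratios were 1.01 and 0.916. In chr4:20000001-30000000 there were 1038 SYSY summits against 155 Abcam summits, a ratio of 4.14 (3.50 to 4.90). Of these SYSY summits 816 lay in dense bins, and the ratio outside the bins was 1.17. Further along, an excess was also present outside the dense bins. The ratio was 2.18 for chr4:30000001-40000000, 2.16 for chr4:40000001-50000000 and 3.04 for chr4:50000001-60000000, and it was 2.39, 2.09 and 2.62 outside the bins. Of the 677, 855 and 1023 SYSY summits of these segments 78, 182 and 305 lay in dense bins. Leaving the bins out also shortens the whole SYSY list, which by itself raises the ratio of the summits that remain. In these 3 segments 26.3%, 27.7% and 18.5% of the SYSY summits were shared. Most Abcam summits there were shared (78.6%, 88.2% and 77.9%), more than the 59.7% of the whole list. The Abcam sites of this region were thus mostly sites of the SYSY list too, and the SYSY list held many more.

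In windows of 1 Mb both antibodies had summits throughout the genome. None of the 1334 windows was empty in either list. Across windows of these 2 libraries, Spearman's rho between the summit numbers was 0.61, against 0.73, 0.68 and 0.65 between the replicates of 11, 12 and 13 hpf. Outside the dense bins it was 0.72. Pearson's r of the same numbers was 0.535 between the antibodies (0.930 outside the bins). Between the replicates it was 0.951, 0.925 and 0.901. The later lists have few summits per window, and what this does to their correlations was not tested. The windows share the read mapping and neighbouring windows resemble each other, so that no p-value is given. Against the later libraries rho was 0.49 to 0.63 for the SYSY list (0.57 to 0.70 outside the dense bins) and 0.59 to 0.69 for the Abcam list. Of 811 windows with at least 50 summits in both lists together, 111 (13.7%) had a SYSY share of at least 2 times the Abcam share, and 70 (8.63%) an Abcam share of at least 2 times the SYSY share. This filter lets windows rich in SYSY summits pass more easily, since that list is longer, so that the 2 percentages are not compared. Dense-bin summits were present in 102 of the 811 windows and in 78 of the 111 with a high SYSY share, an overlap that the choice of the bins largely fixes. Of the 111 windows 18 were on chromosome 4, where 44 windows were tested. Near the ends of chromosomes few windows were uneven: of 110 tested windows in the outer 2 Mb, 2 had a high SYSY share and 5 a high Abcam share.

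The most uneven windows were far more uneven towards SYSY than towards Abcam. The 3 with the highest SYSY share were chr12:14000001-15000000 with 763 SYSY and 9 Abcam summits, chr16:18000001-19000000 with 743 and 9, and chr24:12000001-13000000 with 621 and 8. Nearly all of their SYSY summits lay in dense bins (740, 712 and 596), and the 6 later SYSY libraries together had 4, 3 and 1 summits in them. The 3 with the highest Abcam share were chr13:37000001-38000000 with 16 SYSY and 35 Abcam summits, chr7:14000001-15000000 with 32 and 63, and chr6:14000001-15000000 with 25 and 47. These had summits of both lists. They held no summit in dense bins, which the rule largely fixes, since it looks for an excess of SYSY summits alone. An excess of Abcam summits as steep as that of the SYSY windows was not found in any tested window.

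Both antibodies gave more summits towards the ends of the chromosomes, the Abcam antibody more steeply. Distances were measured from 45 ends, since 5 chromosomes had no usable second end in the SYSY list. The outer 2 Mb of these ends made up 7.50% of the length. They held 24.4% of the SYSY summits (194.7 per Mb) against 32.2% of the Abcam summits (159.8 per Mb), a ratio of shares of 0.757 (0.743 to 0.772). The density there was 3.25 times the mean of the list for SYSY and 4.29 times for Abcam, and 5.35 to 6.12 times in the 6 later libraries. The ratio was below 1 at 41 of the 45 ends, with a median of 0.775, and was alike at first ends (0.755) and second ends (0.760). All these ratios divide by the same list totals, dense bins included, so that the ends are not independent of each other. Ratios of single ends were not taken outside the bins. Single ends ran from 0.582 at the first end of chromosome 18, with 323 SYSY and 345 Abcam summits, to 1.41 at the first end of chromosome 3, with 297 and 131. Outside the dense bins the ratio over all ends was 0.922 (0.905 to 0.939), so that most of the difference went with these bins, which lay mainly in the interior.

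**Figure D2:**
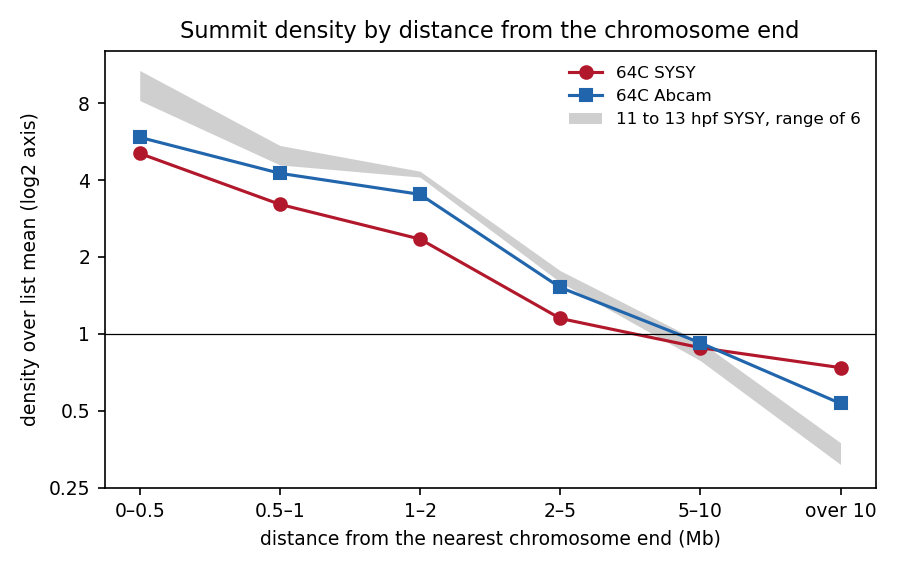
Summit density in 6 classes of distance from the nearest chromosome end, divided by the mean density of the list (log2 axis), for the 64C SYSY list, the 64C Abcam list and the 6 later SYSY libraries (grey range). Both 64C lists fall with distance from the end, from 5.08 (SYSY) and 5.88 (Abcam) in the first class to 0.738 (SYSY) and 0.535 (Abcam) beyond 10 Mb, and the later libraries fall more steeply.

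The steps between the distance classes were not even. In the last 0.5 Mb the ratio of shares was 0.865 (1.06 outside the dense bins), and from 1 to 2 Mb it was at its lowest, 0.668 (0.823 outside the bins). Beyond 10 Mb it was 1.38 (1.14 outside the bins), where 46.1% of the SYSY summits lay against 33.4% of the Abcam summits. The shared part went with distance in both lists. Within 2 Mb of an end 55.0% of SYSY summits and 72.3% of Abcam summits were shared, and beyond 10 Mb 17.5% of SYSY summits and 44.0% of Abcam summits. Of the SYSY summits beyond 10 Mb 10999 lay in dense bins, and without the bins 25.9% (SYSY) and 43.9% (Abcam) were shared there, against 55.6% and 72.3% within 2 Mb. The replicate pairs of the later stages went the same way, with 47.0% to 72.0% of their summits shared in the outer 2 Mb and 25.7% to 54.8% beyond 10 Mb.

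Peaks with several summits were less frequent in the SYSY list, with 14.9% of its peaks (8502 of 56987) against 24.4% of the Abcam peaks (8274 of 33876), a difference of −9.51 percentage points. The direction depended on the score. With summits at or above the median score of their list the difference was 6.12 points, and with a score of at least 5 it was 4.35 points, both towards SYSY. With the 49053 highest-scoring SYSY summits against the whole Abcam list, which has the same number, the difference was −0.819 points. Of the 19823 SYSY summits in the top score quartile 9469 lay outside the dense bins. The score cutoffs were not repeated without the bins, so that the part of the bins in this was not tested. Single-summit peaks had the lower scores in the SYSY list, with a median of 4.35 against 5.11 in the Abcam list. In peaks with several summits the summits had a median score of 10.1 with SYSY, where 37.1% of them lay in dense bins, and 6.03 with Abcam. The 6 later libraries had 4.99% to 7.98% of peaks with several summits, below both 64C lists.

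The largest peaks belonged to the SYSY list. Peaks with 10 or more summits were 0.616% of the SYSY list (351 peaks) and 0.177% of the Abcam list (60 peaks), and the maximum was 117 summits with SYSY and 17 with Abcam. Of the SYSY peaks of this size 74.4% touched dense bins, and outside the bins the maximum was 30. Peaks of 2 summits were more frequent in the Abcam list, at 7.82% of SYSY and 14.8% of Abcam peaks. From first to last summit, peaks with several summits spanned a median of 182 bp (177 to 186) with SYSY and 137 bp (134 to 141) with Abcam, and 162 bp with SYSY outside the dense bins. A span over 1000 bp was reached by 5.36% of the SYSY peaks with several summits (2.42% outside the dense bins) and 1.27% of the Abcam ones.

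Summits in peaks with several summits were more often shared. A single summit of the other list can lie within 250 bp of several summits of a peak and make all of them shared. How much of the pattern is built in this way was not tested. In the SYSY list the shared part was 29.0% in peaks of 1 summit, 48.8% in peaks of 2, 51.9% in peaks of 3 and 13.4% in peaks of 10 or more, of whose summits 80.7% lay in dense bins. Outside the dense bins the SYSY shares were 31.0%, 59.0%, 67.8% and 68.8% for the same classes. In the Abcam list it was 42.8% in peaks of 1 summit, 68.2% in peaks of 2, 81.7% in peaks of 3 and 92.9% in peaks of 10 or more. By score quartile the direction held in all but one class. Among all SYSY summits of the highest quartile, 35.8% were shared in single-summit peaks and 27.8% in peaks with several. Among SYSY summits outside the bins in the lowest quartile, 23.9% were shared in single-summit peaks and 60.7% in peaks with several, and in the highest quartile 51.8% and 64.7%. Among all Abcam summits the lowest quartile gave 42.4% and 74.4%, and the highest quartile 47.0% and 82.9%. In the later replicates 33.1% to 61.4% of the summits of single-summit peaks were shared, and 86.7% to 96.3% of those in peaks with several.

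**Figure D3:**
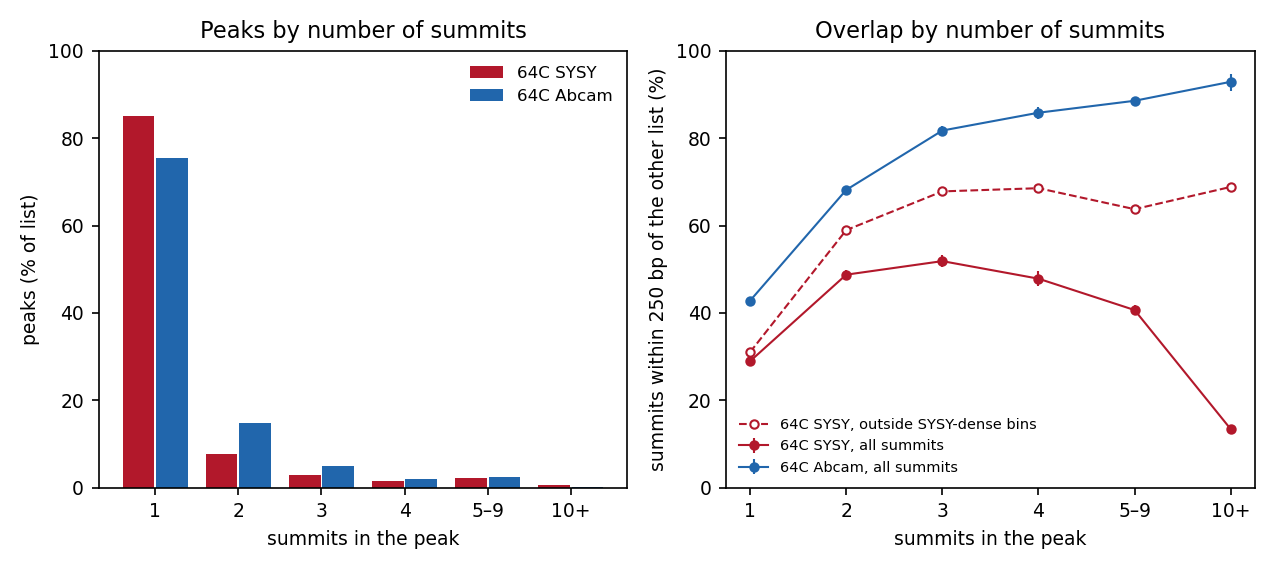
Left, share of the peaks of each 64C list by the number of summits in the peak; right, share of summits within 250 bp of the other 64C list by the same classes, with 95% Wilson intervals on the filled points. In the largest peaks 13.4% of the SYSY summits are shared (68.8% without the dense bins), whereas the shared part of the Abcam summits increases with the number of summits up to 92.9%.

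The peaks with the most summits show how different the extremes of the lists were. The SYSY peak with 117 summits lay at chr12:14349089-14364599, over 15511 bp. The next ones were chr24:12261691-12271572 with 69 summits and chr10:16845999-16854675 with 64. All their summits lay in dense bins, with no Abcam summit and no summit of a later library within their spans. The Abcam peaks with the most summits were chr15:42049949-42052630 with 17, chr20:53471007-53473003 with 17 and chr3:1514117-1516412 with 16. Every summit of these Abcam peaks was shared, and the SYSY list had 14, 8 and 19 summits within their spans. The later libraries together had 20, 19 and 3 summits there.

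Summits that were each other's nearest in the opposite list, within 250 bp, were taken as matched, which gave 20819 matched pairs. These linked 16603 SYSY peaks (29.1%) with 15817 Abcam peaks (46.7%). A linked SYSY peak took in several Abcam peaks in 4.90% of cases, and a linked Abcam peak several SYSY peaks in 9.19%. Where 1 SYSY peak was linked with 1 Abcam peak (12669 pairs), the number of summits was the same in 64.2%, higher with SYSY in 11.6% and higher with Abcam in 24.2%. In these 1 to 1 pairs the Abcam peak was thus more often the one split into more summits. Sites where a peak of one list met several peaks of the other are left out of this count. Of the linked peaks 24.4% of the SYSY and 38.9% of the Abcam peaks had several summits, and of the unlinked peaks 11.0% of the SYSY and 11.7% of the Abcam peaks. Without peaks in dense bins, 6.68% of the unlinked SYSY peaks and 11.7% of the unlinked Abcam peaks had several summits.

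The distance from a summit to the next one on the chromosome had a median of 507 bp (489 to 526) in the SYSY list and 526 bp (497 to 562) in the Abcam list, a ratio of 0.964 (0.870 to 1.06). The medians were alike only with the dense bins included. Outside the dense bins the SYSY median was 1916 bp against 520.5 bp with Abcam, and in the bins it was 159 bp for SYSY. The median of all neighbours lies between the short distances within peaks and the mostly long ones between peaks. It thus changes with the share of short distances and is no typical spacing. Within 250 bp were 39.7% of all SYSY and 41.0% of all Abcam neighbours, and 30.8% and 41.0% outside the bins. Neighbouring summits in different peaks were a median of 4355 bp apart with SYSY and 8366 bp apart with Abcam. Outside the dense bins these medians were 6465 bp and 8296 bp. The SYSY list has more peaks in the same range, which by itself shortens this distance. Neighbours within 1 peak were a median of 115 bp apart (115 to 116) with SYSY and 105 bp (104 to 106) with Abcam.

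Within peaks the SYSY summits were thus spaced slightly wider. The commonest spacing was 90 to 99 bp with SYSY and 80 to 89 bp with Abcam, and the smallest was 24 bp with SYSY and 9 bp with Abcam. Spacings over 200 bp made up 9.03% of the SYSY and 6.63% of the Abcam neighbours within peaks. Outside the dense bins the SYSY median was 113 bp, still above that of Abcam. The difference was largest in small peaks. In peaks of 2 summits the median was 106 bp with SYSY and 95 bp with Abcam, in peaks of 5 to 9 summits 118 bp and 115 bp, and in peaks of 10 or more 123 bp in both lists. Without peaks in dense bins the SYSY medians of these classes were 105 bp, 119 bp and 123 bp. Where 2 neighbouring summits of 1 peak were both matched to neighbours in 1 peak of the other list (2463 cases), the medians were 114 bp with SYSY and 112 bp with Abcam, with a median difference of 1 bp. In the later libraries the median within peaks was 86 to 93 bp.

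**Figure D4:**
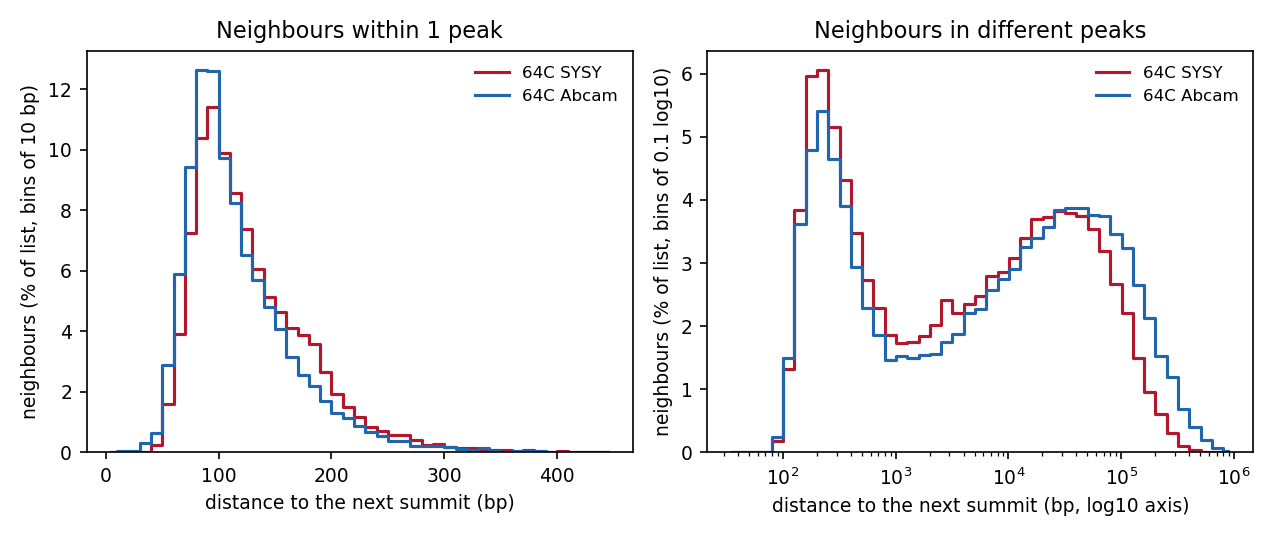
Distance from a summit to the next one on the chromosome for the 64C SYSY and Abcam lists, as a percentage of neighbours within 1 peak (left, bins of 10 bp) and of neighbours in different peaks (right, log10 axis). Within peaks both curves have 1 maximum, at 90 to 99 bp for SYSY and 80 to 89 bp for Abcam; between peaks both have a maximum at short distances and a broader one at long distances, which lies further out for Abcam.

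Neighbours in different peaks fell into a near and a far group in both lists. Within 500 bp were 30.3% of the SYSY and 27.0% of the Abcam neighbours of this kind. Over 10 kb were 40.4% of the SYSY and 47.8% of the Abcam neighbours. Outside the dense bins these were 25.9% (SYSY) and 27.1% (Abcam) within 500 bp, and 44.2% and 47.7% over 10 kb. The longest stretch without a summit was 693619 bp in the SYSY list and 958835 bp in the Abcam list.

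Matched summits lay close together. The median absolute offset over the 20819 pairs was 20 bp (20 to 21), and 32.2% of the pairs were within 10 bp, 57.1% within 25 bp and 92.6% within 100 bp. No shift to one side was seen, with a median signed offset, SYSY minus Abcam, of −1 bp (−1 to 0) and with the SYSY summit at the higher position in 10039 pairs, at the lower in 10415 and at the same in 365. Between replicates the median absolute offset was smaller, at 15 bp for 11 hpf, 14 bp for 12 hpf and 12 bp for 13 hpf, with 41.1%, 43.3% and 47.1% of pairs within 10 bp. Over 100 bp apart were 7.36% of the pairs between the antibodies, and 9.20% to 12.7% of those between replicates. Against the later libraries the median was 14 to 19 bp for the SYSY list and 14 to 18 bp for the Abcam list. With 1 summit per peak the median between the antibodies was 36 bp, and with the nearest Abcam summit of every SYSY summit it was 32 bp.

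**Figure D5:**
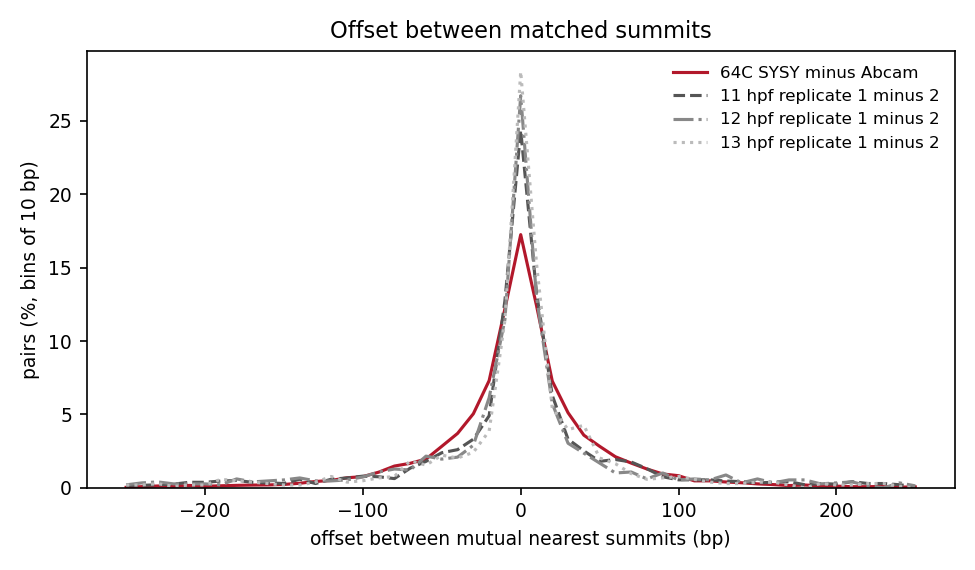
Signed offset between matched summits in bins of 10 bp, SYSY minus Abcam at 64C and replicate 1 minus replicate 2 at 11, 12 and 13 hpf, as a percentage of pairs. All curves are centred near 0, and the curve of the antibodies is lower at the centre (32.2% of pairs within 10 bp, against 41.1% to 47.1% between replicates).

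The offset followed the score and the number of summits in the peak more than the place on the chromosome. Pairs with both scores in the top quartile of their lists were a median of 8 bp apart, and pairs with both in the bottom quartile 38 bp. In peaks of 1 summit these medians were 6 bp and 47 bp. Pairs of single-summit peaks were 26 bp apart in all, and pairs of peaks with several summits in both lists 15 bp. Where summits lie close together the nearest one cannot be far, so that the lower value is in part built in. By chromosome the median ran only from 17 to 24 bp, and by distance from the end from 17 to 21 bp. These offsets cover matched pairs only: of the SYSY summits in the top quartile 29.4% had an Abcam summit within 250 bp (61.0% outside the dense bins).

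The matched pairs within 10 bp whose scores ranked best on average in their lists were found on 4 chromosomes. On chromosome 18 the SYSY summit lay at 5125968 (score 114) and the Abcam summit at 5125967 (score 13.5). On chromosome 22 there were 2 such pairs, at 133163 (SYSY, score 77.1) and 133158 (Abcam, score 20.1), and at 200482 (SYSY, score 71.8) and 200479 (Abcam, score 16.7). On chromosome 15 the SYSY summit at 44583845 (score 68.3) was 1 bp from the Abcam summit at 44583844 (score 27.0), and both were the only summits of their peaks. On chromosome 23 the summits lay at 44770392 (SYSY, score 95.3) and 44770397 (Abcam, score 13.3). Summits within 250 bp were present in all 6 later libraries at the pairs of chromosomes 18 and 23 and at the first of chromosome 22, in 5 at the other one of chromosome 22, and in 2 at that of chromosome 15. Coordinates are those of danRer10, and no annotation of this assembly was used here to name genes at them.

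Sites of the later libraries were mostly sites of both antibodies. Of the summits of the 6 later libraries in the common range, 70.0% ± 3.14 (SD, n = 6) lay within 250 bp of a summit of both 64C lists. Another 17.9% ± 0.749 were near the SYSY list alone and 7.06% ± 1.42 near the Abcam list alone (SD, n = 6 each), and 5.01% ± 1.52 near neither. These 6 libraries are replicates of several stages, so that the SD mixes the spread between stages with that between replicates. The larger share near SYSY alone stands beside the larger number of SYSY summits and the use of the same antibody, whose parts in it were not tested. Seen from 64C, shared summits were more often found near a later summit than unshared ones. The shared and unshared summits also differed in other ways, whose parts in this were not tested. Their median scores were 5.68 and 5.28 with SYSY, and 5.83 and 5.11 with Abcam. In peaks with several summits lay 46.9% and 34.8% of them with SYSY, and 62.6% and 25.9% with Abcam. The shared part was also larger near the chromosome ends. Among SYSY summits 46.1% of the shared and 7.01% of the unshared ones lay near a summit of any later library (9.20% of the unshared outside the dense bins), and among Abcam summits 44.6% of the shared and 9.91% of the unshared ones.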

How the data were processed

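6mA-IP-seq libraries of zebrafish embryos were compared as deposited summit lists. Per the submitters' processing notes and the study's methods, Bowtie 1.0 was used by the authors for alignment to danRer10 (whether with the same set of sequences for every library is not stated), with a randomly chosen location for reads that matched equally well at several. MACS then called the peaks of every IP library relative to its input (FDR cutoff 0.01). The deposited score of each summit is the −log10 of its q-value, with none below 2. Random choice of location can put summits on any copy of a repeated sequence.

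Groups were taken from the labels. With 1 library per antibody at 64C, no test was made, and ratios and shares are given with 95% counting intervals (Wilson for shares). Positions are counted from 1. A second chromosome end was used only where the last SYSY summit lay within 100 kb of the last summit of any library. In the windows of 1 Mb, 0.5 was added to each number before the ratio. The regions compared, the dense-bin rule and the lists were chosen with earlier results of these data known. The regions named are, by rule, the 3 chromosomes and windows with the highest and the lowest ratio, the 3 peaks of each list with the most summits, and the 5 best-ranked matched pairs. The matching was tested on simulated lists with summits spread evenly along the chromosomes and 1 summit per peak. These lack the clusters of the real lists, so that the test does not show how the matching works within clusters. Sequence motifs and gene features at summits had been planned and were not run, since no danRer10 genome or annotation was used here. The alternatives were other matching distances, score cutoffs, ranges, lists of equal size, 1 summit per peak and leaving out the dense bins. Python 3.11.15, NumPy 2.4.6, pandas 2.3.3 and matplotlib 3.10.9 were used.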

Additional observations from a re-analysis of the deposited data

Results flagged for a closer look

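On unplaced scaffolds, outside the common range, the 64C SYSY list holds none of its 79291 summits, and the Abcam list holds 3275 summits on 524 scaffolds. Their median score was 5.83, against 5.69 in the common range, and 28.9% of their peaks had several summits, against 24.4% in the common range.

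Another 1183 Abcam summits lie on numbered chromosomes past the last SYSY summit. On chromosome 4 there were 482 of them over 14.6 Mb (32.9 per Mb, against 26.3 per Mb in the common range). On chromosomes 6, 15, 18 and 21 there were 103, 154, 258 and 179, at 303 per Mb, 469 per Mb, 218 per Mb and 134 per Mb, over at most 1.34 Mb next to the last summit of the chromosome. The later SYSY libraries had 67 to 201 summits past the same positions. Whether the absence from the 64C SYSY list comes from the reference sequences or a later trimming of that list is not stated, so that it is no measure of 6mA there.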

How the results depend on the processing

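Of 61 values under 15 other settings, 13 stayed within the counting interval of the reported value, 46 moved outside it and 2 reversed, and the causes were not tested. Matching within 100 bp gave 26.9% of SYSY and 46.1% of Abcam summits shared and a median offset of 18 bp, within 500 bp 36.5% and 65.5%, and within 1000 bp 39.1% and 69.5%. With scores at or above the median of the own list, the ratio of summit numbers was 1.67, which such a cutoff largely fixes. The shared parts were 26.2% of SYSY and 42.4% of Abcam, and the chromosome SD was 0.40. The difference in peaks with several summits was 6.12 points (reversed), the ratio of median spacings 0.0506 and the median offset 16 bp. With scores of at least 5 the same values were 1.51, 28.9%, 44.0%, 0.39, 4.35 points (reversed), 0.0978 and 16 bp. The median spacing of all neighbours changes with the share of short distances, so that its ratio is unstable. Without the dense bins the ratio of numbers was 1.32, the SYSY share 40.8%, the SD 0.17, the outer 2 Mb ratio 0.922, the difference in peaks −12.1 points and the spacing ratio 3.68. On whole numbered chromosomes the ratio of numbers was 1.58, the Abcam share 58.3% and the outer ratio 0.729. With 1 summit per peak these values were 1.68 for numbers, 29.4% of SYSY and 48.0% of Abcam shared, 0.20 for the SD, 0.851 for the outer ratio, 0.526 for spacing and 36 bp for the offset. With the 49053 highest-scoring SYSY summits against the whole Abcam list, of the same number, 37.0% of SYSY and 44.3% of Abcam summits were shared. The SD was then 0.36, the difference in peaks −0.819 points, the spacing ratio 0.557 and the offset 18 bp. The offset to the nearest Abcam summit of every SYSY summit was 32 bp, and the ratio within 1 Mb of an end 0.819. Chosen after seeing the data, leaving out chromosome 4 gave an SD of 0.22, and the spacing ratio was 1.10 for summits of 1 peak and 0.521 for those of different peaks. The shared parts by distance, linked peaks and spacing by class without the dense bins were also chosen after seeing the data. No paired analysis was possible because each antibody had 1 library at 64C. Unknown depth limits every comparison of numbers.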
